A study of Mus musculus with 135 samples.

Results

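The Polycomb group genes described here are the 10 listed genes of the Polycomb repressive complexes PRC1 and PRC2: Ezh2, Eed, Suz12 and Jarid2 for PRC2, and Rnf2, Ring1, Bmi1, Phc1, Phc2 and Kdm2b for PRC1. They were taken by name, and all 10 were found among the 24116 genes of each of the 7 deposited RNA tables. RNA was measured by Smart-seq2, a full-length RNA sequencing method for small cell numbers, in 107 libraries from mouse oocytes, embryos, parthenotes (unfertilised eggs activated to divide) and mouse embryonic stem cells (ESCs). The study asked what the OBOX homeobox proteins do when the embryo's own genome is switched on.

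Wild-type material covered full-grown oocytes (FGO, 2 libraries), oocytes at metaphase II (MII, 2), early 2-cell (2), late 2-cell (3) and 4-cell (3) embryos and blastocysts (2). Obox KO oocytes were sampled at FGO (2) and MII (2). Embryos labelled mzKO, which lack maternal and zygotic Obox, were sampled at early 2-cell (2), late 2-cell (3), the collection time of control 4-cell embryos (3) and the blastocyst time (2), where the label says they had arrested as 2-cell embryos. Further mzKO libraries at the blastocyst time carried Obox157, Obox3 or Obox4 overexpression (1 each, the last also labelled as arrested). Maternal-only knockouts (mKO) and their own wild-type controls had 2 late 2-cell libraries and 1 blastocyst library each. Single Obox+- embryos (3 early, 3 late 2-cell) were compared with single Obox-- embryos (3 early, 4 late).

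Wild-type full-grown oocytes were injected with siRNA (maternal knockdown, read in late 2-cell parthenotes: siCtrl 3, siObox12mix 2, siObox5 2, siObox7 2), and zygotes likewise (early 2-cell: siCtrl 2, siObox4 2; late 2-cell: siCtrl 1, siObox3 1; 4-cell: siCtrl 3, siObox6 2, siObox8 2). Wild-type embryos given H2O or Obox1, Obox2, Obox3 or Obox5 RNA had 1 library each at the late 2-cell and blastocyst stages. ESCs grown in 2i medium overexpressed GFP (5), Obox3 (4) or Obox5 (4), and a separate set did so in wild-type or Nr5a2 KO cells (2 each). Nothing in the labels says which libraries came from separate animals, matings or cultures, so the p-values speak to library-to-library spread, which may be technical.

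PRC2 is a histone methyltransferase that places methyl groups on lysine 27 of histone H3, with EZH2 as the enzyme, EED and SUZ12 as obligatory partners and JARID2 as an accessory subunit. PRC1 is a ubiquitin ligase for histone H2A, with RNF2 (RING1B) or RING1 as the enzyme. A PCGF protein such as BMI1 decides the kind of PRC1, PHC proteins join the canonical form and can polymerise, and KDM2B brings a variant form to unmethylated CpG islands. In oocytes and early mouse embryos, Polycomb marks inherited from the egg are known to silence developmental genes and a small group of imprinted loci.

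Promoter sequences are shown for Kdm2b and Phc1, the 2 genes with a window that holds TAATCC, and for Bmi1, whose mzKO change is described below, because KDM2B and PRC1 act at CpG-rich starts and because OBOX proteins carry a homeodomain. Each window holds 250 bases before and 50 after a start, from RefSeq on GRCm38.p6, while the submitters' processing notes name mm9 for the data. Kdm2b has 4 annotated starts, of which the most CpG-rich (chr5:122900301-122900600, minus strand, 49 CpG) and the one with a TAATCC match (chr5:122989050-122989349, minus strand) are given. Bmi1 lies at chr2:18676768-18677067 on the plus strand, and Phc1 at chr6:122340178-122340477 on the minus strand. Capitals mark GGATTA, the reverse complement of TAATCC, the core site of Otx- and Crx-type homeodomains.
Kdm2b, CpG-rich start: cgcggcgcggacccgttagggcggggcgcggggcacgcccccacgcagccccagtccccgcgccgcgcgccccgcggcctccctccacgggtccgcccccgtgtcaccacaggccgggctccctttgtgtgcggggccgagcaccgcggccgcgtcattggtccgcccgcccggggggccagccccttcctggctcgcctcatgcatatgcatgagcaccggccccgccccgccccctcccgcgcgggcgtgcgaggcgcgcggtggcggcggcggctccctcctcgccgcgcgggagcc
Kdm2b, start with a match: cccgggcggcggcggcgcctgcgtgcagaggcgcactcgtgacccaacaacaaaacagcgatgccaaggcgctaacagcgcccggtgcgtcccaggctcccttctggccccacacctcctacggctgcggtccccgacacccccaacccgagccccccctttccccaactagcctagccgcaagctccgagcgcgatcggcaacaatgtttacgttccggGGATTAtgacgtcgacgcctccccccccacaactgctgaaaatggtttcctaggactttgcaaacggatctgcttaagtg
Bmi1: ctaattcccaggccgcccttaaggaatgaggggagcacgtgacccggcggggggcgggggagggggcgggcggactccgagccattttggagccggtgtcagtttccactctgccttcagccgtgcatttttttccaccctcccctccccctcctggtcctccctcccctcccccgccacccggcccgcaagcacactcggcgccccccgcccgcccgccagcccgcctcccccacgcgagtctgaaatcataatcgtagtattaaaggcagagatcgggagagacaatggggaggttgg
Phc1: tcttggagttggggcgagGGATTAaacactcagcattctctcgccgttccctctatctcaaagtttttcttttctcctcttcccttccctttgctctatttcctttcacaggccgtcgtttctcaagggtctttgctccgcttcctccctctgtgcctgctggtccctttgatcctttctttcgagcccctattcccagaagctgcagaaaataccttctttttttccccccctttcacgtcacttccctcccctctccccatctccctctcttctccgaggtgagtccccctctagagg
On either strand, TAATCC was found in 2 of the 16 windows of the 10 genes, 30 bases before a Kdm2b start and 232 bases before the Phc1 start. It was found in 7.062% of all 32851 windows, so a match in a single window is common. The members' windows held 2 to 49 CpG, and 15 of the 16 held at least the all-window median of 7. A match is a description of the letters in these windows and says nothing about binding.

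Facts of the libraries bear on every value. All levels are in FPKM, a count of fragments per length of transcript and per sequenced fragment, whose sums ran from 37752 to 535770 per library, and the 45S ribosomal precursor Rn45s took 0.114% to 71.5% of them. The deposited values gave no read counts, so the depth is unknown and no counting interval is given. The sum of the Obox1, Obox2, Obox3, Obox5 and Obox7 transcripts leaves out Obox4, Obox6 and Obox8. It was 6514 to 8396 FPKM in wild-type oocytes and 157 to 290.1 in wild-type late 2-cell embryos. In KO oocytes it was at most 1.53, and in mzKO embryos up to the 4-cell time at most 0.826. One arrested mzKO library held 60.1, which goes against its label. Obox-- single embryos still held 438 to 663 at the early 2-cell stage, against 355 to 388 in Obox+-, and 3.28 to 9.17 against 18.4 to 32.0 at the late stage. The wild-type blastocysts of the mzKO table read high for trophectoderm markers (6190 to 11716 summed FPKM) and ESCs for pluripotency markers (2660 to 9010), and cumulus cell markers summed to at most 24.1 in the wild-type and mzKO libraries from late 2-cell onwards. FPKM is a share of a library, and in such bulk samples fewer cells of a type and less RNA per cell cannot be told apart.

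In wild-type oocytes and embryos, the PRC2 and PRC1 genes did not share a course. Ezh2, the methyltransferase, stood at 39.0 and 23.1 FPKM in FGO, 114 and 124 in MII, 73.9 and 16.5 in early 2-cell embryos, 26.4, 30.1 and 32.2 in late 2-cell embryos, 17.5, 22.5 and 16.2 in 4-cell embryos, and 26.6 and 11.1 in blastocysts. MII oocytes were thus highest, and the 4-cell libraries lay below every late 2-cell library. Suz12, which stabilises the complex, followed another path: 5.33 and 2.98 in FGO, 22.4 and 19.2 in MII, 62.2 and 16.9 in early 2-cell, 69.7, 81.0 and 76.7 in late 2-cell, 42.6, 41.6 and 26.99 in 4-cell, and 29.4 and 6.90 in blastocysts. It peaked in late 2-cell embryos. Eed, which binds the methyl mark, stayed between 12.9 and 87.1 in all of these libraries, and those extremes were both early 2-cell libraries.

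Jarid2, which helps PRC2 find its targets, was highest in blastocysts. Its values were 2.32 and 1.00 in FGO, 11.6 and 12.97 in MII, 4.87 and 1.31 in early 2-cell, 5.50, 5.98 and 6.05 in late 2-cell, 5.15, 9.86 and 3.27 in 4-cell, and 39.6 and 18.5 in blastocysts. No blastocyst library overlapped any earlier one.

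Among the PRC1 genes, Bmi1, the PCGF subunit of canonical PRC1, was the most abundant of the 10 from the early to the late 2-cell stage. It measured 24.6 and 26.3 in FGO, 85.1 and 70.4 in MII, 170 and 94.3 in early 2-cell, 148, 158 and 137 in late 2-cell, 45.2, 31.7 and 42.8 in 4-cell, and 4.63 and 1.23 in blastocysts. Rnf2, the ligase, went from 14.8 and 12.3 in FGO to 54.5 and 63.5 in MII and 71.2 and 30.1 in early 2-cell embryos, and then from 101, 79.0 and 92.9 in late 2-cell embryos to 45.5, 45.8 and 34.2 at the 4-cell stage and 22.0 and 12.04 in blastocysts. Its paralogue Ring1 was at or near 0 throughout, with at most 1.08 FPKM in a wild-type library of these stages. Kdm2b was at 13.8 and 7.55 in FGO, 23.5 and 22.9 in MII, 10.9 and 2.37 in early 2-cell, 10.3, 11.7 and 10.6 in late 2-cell, 12.4, 15.8 and 7.86 in 4-cell, and 6.01 and 5.69 in blastocysts. Phc1 was highest in MII (10.9 and 9.34) and at most 3.14 from the late 2-cell stage on. Phc2 varied widely between libraries of the same stage, with 4.29, 29.5 and 47.3 in late 2-cell embryos and 0.662, 7.22 and 18.3 in 4-cell embryos, and it was at most 0.238 in blastocysts.

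**Figure D1:**
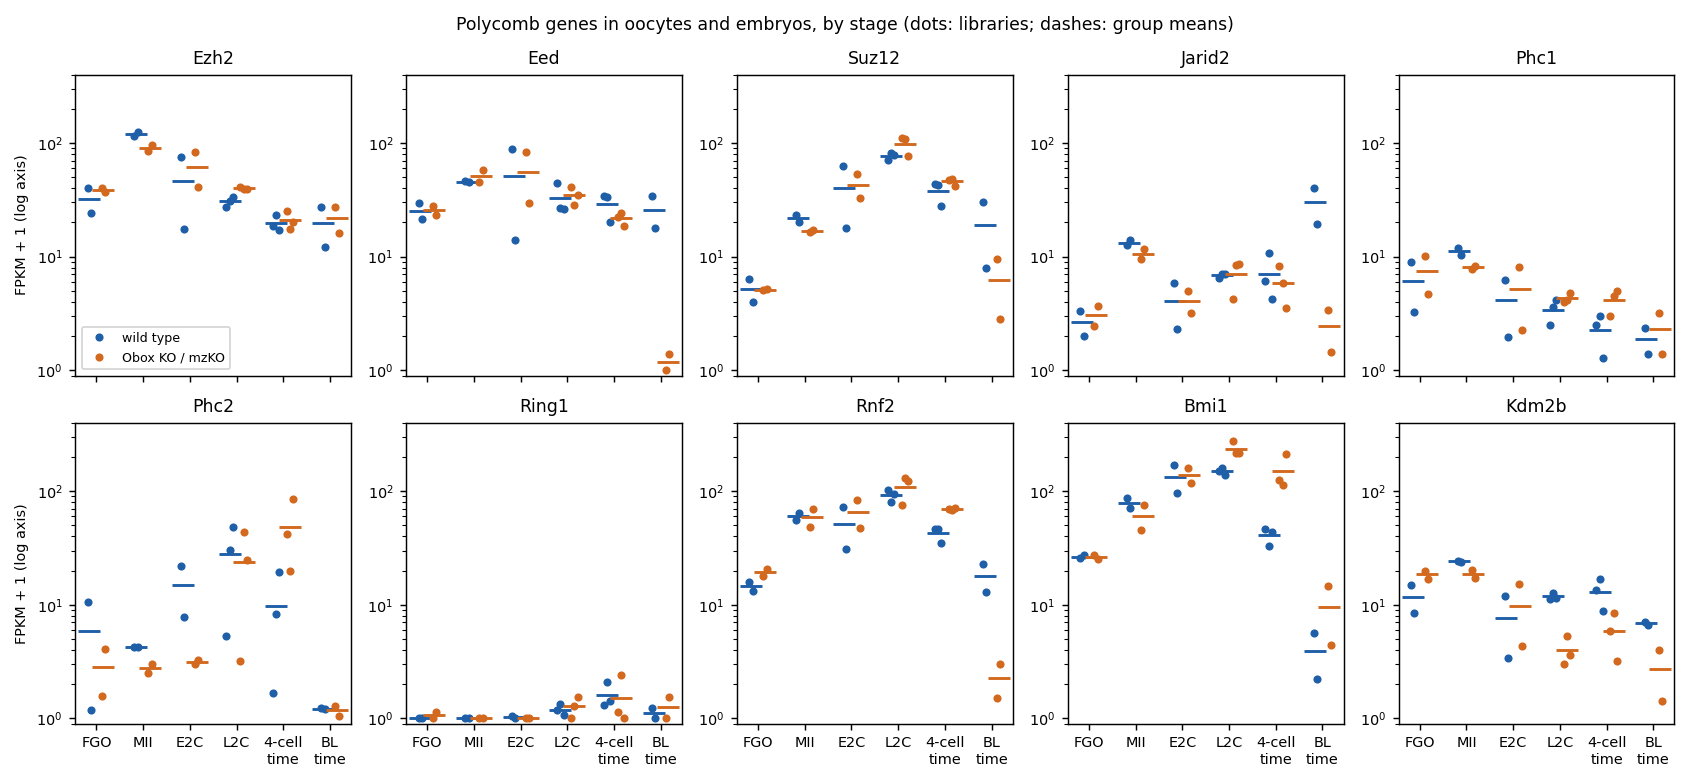
FPKM + 1 on a log axis for the 10 genes by stage, with wild type in blue and Obox KO oocytes or mzKO embryos in orange. Each dot is 1 library and each dash a group mean. Bmi1 falls from the late 2-cell to the blastocyst stage in wild type, and at the 4-cell time all 3 mzKO libraries (113 to 213 FPKM) lie above all 3 wild-type ones (31.7 to 45.2).

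Changes between stages were tested with limma on log2(FPKM + 1), over all tested genes of a table, with Benjamini-Hochberg adjustment. A gene was called where the adjusted p was under 0.05 and the fold change at least 2-fold, and fold changes on this scale understate those of low genes. From FGO to MII, 5 of the 10 genes were called, where 25.1% of all tested genes were called. Jarid2 rose by 2.36 on the log2 scale (SE 0.58, adjusted p = 0.00799), Suz12 by 2.11 (adjusted p = 0.0187), Rnf2 by 2.04 (adjusted p = 0.0106), Ezh2 by 1.95 (adjusted p = 0.0189) and Bmi1 by 1.57 (adjusted p = 0.0463). The median over the 10 genes was 1.34 and over all tested genes 0.50. Under median-ratio scaling, which sets each library's median ratio to the per-gene geometric mean equal and which moved the all-gene median by -0.48, the count was 1, and leaving out 1 library gave 0 to 4.

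From MII to the early 2-cell stage, 3 of 10 were called, against 21.6% of all genes: Kdm2b fell by 1.93 (adjusted p = 0.0273), Jarid2 by 1.85 (adjusted p = 0.0218) and Ezh2 by 1.73 (adjusted p = 0.0341), calls kept in 5, 6 and 5 of 13 alternatives. The median over all tested genes was -0.44, with 19.5% called lower and 2.09% called higher at early 2-cell. Early 2-cell replicate 2 was lower than replicate 1 for all 10 genes, with an FPKM sum of 132875 against 289554 in replicate 1. Without replicate 2 no member was called, and without replicate 1 there were 5. No member was called from the early to the late 2-cell stage, where 37.4% of all genes were (at an unadjusted p under 0.05, 0 members and 47.1% of all genes), and without early 2-cell replicate 1 there were 4.

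From late 2-cell to 4-cell, where 13.1% of all genes were called, 1 member was: Bmi1 fell by 1.88 (SE 0.47, adjusted p = 0.00883), or 0.0519 without 4-cell replicate 2. From 4-cell to blastocyst, 3 were called against 28.3% of all genes. Bmi1 fell by 3.51 (SE 0.53, adjusted p = 8.5e-06), Rnf2 by 1.29 (adjusted p = 0.0466), and Jarid2 rose by 2.09 (adjusted p = 0.00339). Of 13 alternatives, the call was kept in 13 for Bmi1, 7 for Rnf2 and 12 for Jarid2.

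Single Obox+- embryos gave a further view of the 2-cell interval, from another table. From early to late 2-cell, 3 of the 9 tested members were called, against 49.3% of all genes. Kdm2b measured 3.45, 4.51 and 4.23 early and 19.6, 14.5 and 17.6 late, a rise of 1.84 (SE 0.24, adjusted p = 3.71e-06). Jarid2 rose by 1.10 (adjusted p = 0.00446), and Ezh2 fell by 1.21 (adjusted p = 0.000124) from 45.3, 51.4 and 40.6 to 20.1, 17.2 and 20.4. None of the 3 genes overlapped between the stages, as for 66.5% of all genes. Rn45s took 5.99% to 7.44% of the early and 20.1% to 24.4% of the late libraries, and leaving it out took Ezh2 to -0.97 (adjusted p = 9.56e-05), just inside the 2-fold limit. Jarid2 went inside that limit with median-ratio scaling (0.85) and without early replicate 3 (0.94) or late replicate 3 (0.997), while Kdm2b kept its call in all 14 alternatives.

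The other Polycomb genes had their own stage changes. Ezhip, an inhibitor of PRC2 that imitates the histone tail, was at 358 and 309.6 FPKM in FGO, 1007 and 786 in MII, 329 and 161 in early 2-cell, 10.4, 43.3 and 41.1 in late 2-cell, 3.40, 3.46 and 1.88 in 4-cell, and 1.92 and 0.413 in blastocysts. It was above every one of the 10 genes in oocytes and below most of them by the 4-cell stage. Ezhip fell by 3.06 from early to late 2-cell (adjusted p = 0.000246) and by 2.85 from there to 4-cell (adjusted p = 0.00111), and both calls held in all alternatives run. Mtf2, which brings PRC2 to CpG islands, rose by 2.86 from early to late 2-cell (adjusted p = 6.57e-05), from 12.8 and 3.68 to 77.1, 45.0 and 54.2. In single Obox+- embryos over the same interval, Ezhip fell by 4.48 (adjusted p = 1.17e-09) and Mtf2 rose by 2.43 (adjusted p = 2.75e-06). Pcgf1 fell by 5.01 from 4-cell to blastocyst (adjusted p = 2.51e-06), from 211, 178 and 107 to 5.89 and 2.61. In mzKO embryos from early to late 2-cell, Ezhip fell by 4.07 (adjusted p = 5.54e-05) and Mtf2 rose by 2.30 (adjusted p = 0.00200).

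Shares within paralogue pairs show which gene supplied most of each subunit's RNA, as FPKM per length and with no test. Ezh2 made up 89.6% (SD 1.63, n = 2) of the summed Ezh1 and Ezh2 in MII, 68.6% (SD 1.80, n = 3) in late 2-cell, 68.0% (SD 3.07, n = 3) in 4-cell and 92.6% (SD 1.39, n = 2) in blastocysts, so Ezh1, the less active methyltransferase, had its largest share at the late 2-cell and 4-cell stages. Rnf2 supplied 97.7% to 100% of the Ring1 and Rnf2 sum in each wild-type library from FGO to blastocyst. Bmi1 was at 99.9% to 100% of Bmi1 and Pcgf2 up to the 4-cell stage, 87.5% (SD 14.1, n = 2) in blastocysts and 29.4% (SD 11.8, n = 5) in GFP ESCs of the main table, against 70.7% (SD 10.9, n = 2) in wild-type GFP ESCs of the Nr5a2 table. Phc1 was 57.4% (SD 0.988, n = 2) of the Phc1, Phc2 and Phc3 sum in MII, 12.98% (SD 10.2, n = 3) in late 2-cell embryos, 30.1% (SD 33.7, n = 3) in 4-cell embryos and 91.7% (SD 3.72, n = 5) in GFP ESCs. In the wild-type late 2-cell controls of the maternal knockouts the Phc1 share was 42.9% (SD 3.42, n = 2), so it varied between sets of the same stage.

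**Figure D2:**
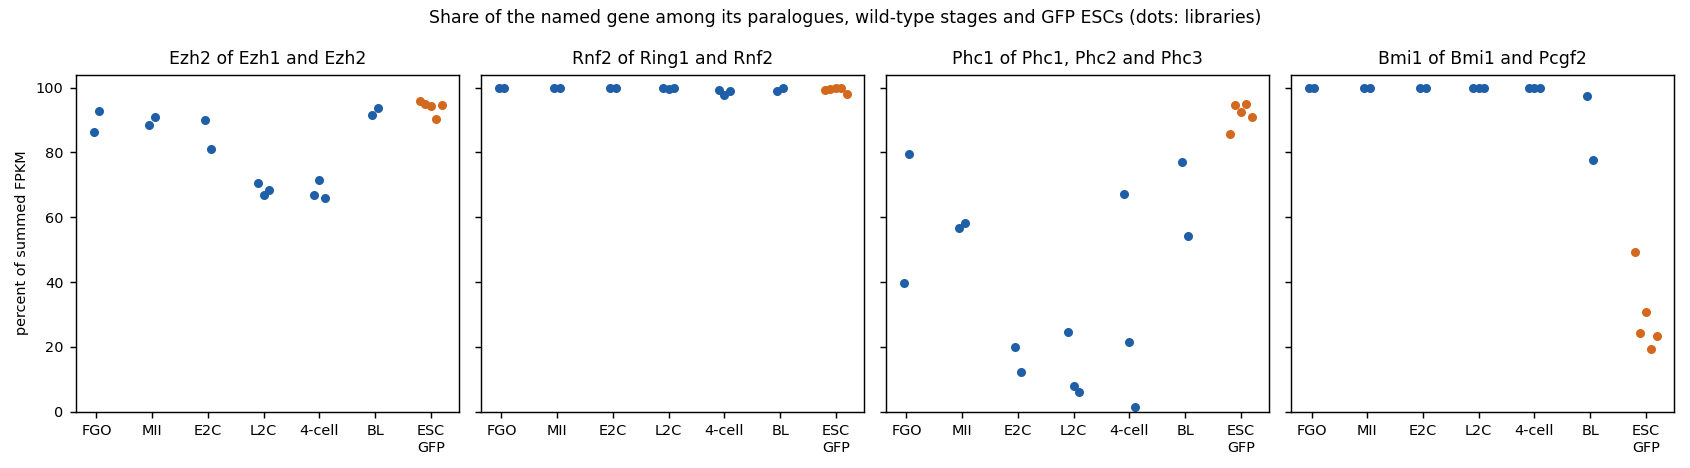
Percent of the summed FPKM held by Ezh2, Rnf2, Phc1 and Bmi1 among their paralogues, for wild-type stages (blue) and GFP ESCs (orange), each dot 1 library. Rnf2 stays near 100% in every group, while the Bmi1 share is 19.4% to 49.3% in the ESC libraries.

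Over the means of the 12 replicated groups of oocytes and embryos, the genes most like each member by Pearson r of log2(FPKM + 1) were found among 5396 genes. Bmi1 was closest to Ankrd44 (0.995), Rnf2 to Wdr33 (0.994), Suz12 to Rmnd5a (0.992), Eed to Ywhae (0.989), Phc1 to Mtss1 (0.985), Ezh2 to Cmtr2 (0.971), Kdm2b to Plrg1 (0.969) and Jarid2 to Fastk (0.935). The group means share libraries and depth, so these are descriptions only. Among the 45 pairs of members, 13 had r over 0.5 and 12 under 0, from -0.66 to 0.86, the highest being Ezh2 with Phc1.

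Loss of Obox in oocytes left no member called by limma, and at an unadjusted p under 0.05 there were 0 at either stage. In FGO, 0.0715% of all genes were called (0.379% at the unadjusted p), and in MII 0.0572% (1.14%). Kdm2b measured 18.97 and 15.96 in Obox KO FGO against 13.8 and 7.55 in wild type, a difference of 0.71 (SE 0.63, adjusted p = 1). In MII it was at 19.1 and 16.3 against 23.5 and 22.9, a difference of -0.38 (SE 0.63, adjusted p = 1). The groups did not overlap for Kdm2b at either stage, and its direction was opposite at the 2 stages. Of the 10 members, 2 were free of overlap in FGO and 6 in MII, against 15.7% and 31.9% of all genes.

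At the early 2-cell stage, again no member was called between mzKO and wild type (0 at an unadjusted p under 0.05), where 0.4% of all genes were called and 2.37% passed the unadjusted p. Kdm2b stood at 14.3 and 3.38 in mzKO against 10.9 and 2.37, and Bmi1 at 157 and 117 against 170 and 94.3. The values overlapped for both genes. Phc2 was at 2.00 and 2.28 in mzKO against 20.9 and 6.88, a difference of -2.07 (SE 1.16, adjusted p = 1) with no overlap, as for 13.1% of all genes.

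At the late 2-cell stage, when the mouse genome is in full activation, Kdm2b was the only member called between mzKO and wild type, where 15.5% of all genes were called. It measured 2.03, 4.36 and 2.59 FPKM in mzKO and 10.3, 11.7 and 10.6 in wild type. Every mzKO library lay below every wild-type one, and 41.3% of all genes were likewise free of overlap in one direction or the other. Kdm2b fell by 1.61 on the log2 scale (SE 0.52, 95% interval -2.67 to -0.55, adjusted p = 0.0300). The call was kept in 8 of 14 alternatives, with adjusted p from 0.00816 to 0.0937. It was lost at a pseudocount of 0.1 (adjusted p = 0.0646) and without any single library except mzKO replicate 2, where log2 fold changes of -1.43 to -1.64 had adjusted p from 0.0657 to 0.0937. The late minus early difference of the mzKO effect was -1.98 (SE 0.82, adjusted p = 0.261; no member called and 1.88% of all genes; at an unadjusted p under 0.05, 1 member and 12.9% of all genes), so a difference between the stages was not shown.

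Bmi1 at the late 2-cell stage measured 275, 215 and 217 in mzKO and 148, 158 and 137 in wild type. The groups did not overlap, and the difference was 0.66 (SE 0.47, adjusted p = 0.358). For Ezh2 the values were 39.8, 38.8 and 38.3 against 26.4, 30.1 and 32.2, a difference of 0.39 (SE 0.48, adjusted p = 0.629). The other 7 members had differences of -0.39 to 0.36 and overlapping values.

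At the 4-cell time, 2 members were called, where 24.6% of all genes were. Bmi1 measured 123, 113 and 213 in mzKO and 45.2, 31.7 and 42.8 in wild type. All mzKO libraries were higher, and 43.9% of all genes were free of overlap at this time. Bmi1 rose by 1.84 (SE 0.47, 95% interval 0.87 to 2.81, adjusted p = 0.00544), and the call held in all 14 alternatives (log2 fold changes of 1.56 to 2.23, adjusted p from 0.000297 to 0.0390). In mzKO embryos, Bmi1 was 0.70 lower at the 4-cell time than at late 2-cell (SE 0.47, adjusted p = 0.401), where wild-type embryos had the called fall given above. At 6.12% of all genes called between these mzKO times and 19.9% from early to late 2-cell mzKO, no member was called in either. At an unadjusted p under 0.05 there were 1 member and 22.2% of all genes in the first, and 2 members and 32.7% in the second. The difference between the 4-cell and late 2-cell effects of mzKO was 1.18 (SE 0.67, adjusted p = 0.524; no member called and 1.17% of all genes; at an unadjusted p under 0.05, 1 member and 11.8% of all genes).

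Phc2, a polymerising subunit of canonical PRC1, was at 40.9, 18.8 and 83.5 in mzKO at the 4-cell time and 0.662, 7.22 and 18.3 in wild type. The lowest mzKO value lay just above the highest wild-type one. Phc2 rose by 2.68 (SE 0.95, adjusted p = 0.0378), a call kept in 7 of 14 alternatives. It was lost at a pseudocount of 0.1 (adjusted p = 0.0527), with no filter (0.0759) and with median-ratio scaling (0.0616). Without wild-type replicate 1 the difference was 1.71 (adjusted p = 0.225), without wild-type replicate 2 it was 2.86 (adjusted p = 0.0750), and without mzKO replicate 1 or 3 it was 2.67 (adjusted p = 0.0813) or 2.17 (adjusted p = 0.175). Kdm2b was again lower in every mzKO library, at 4.87, 7.53 and 2.22 against 12.4, 15.8 and 7.86, but the difference of -1.21 (SE 0.52, adjusted p = 0.0784) was not called. It was called with median-ratio scaling (-1.14, adjusted p = 0.0176) and without mzKO replicate 2 (-1.54, adjusted p = 0.0435). Rnf2 stood at 68.8, 67.5 and 69.5 against 45.5, 45.8 and 34.2, without overlap (difference 0.71, SE 0.44, adjusted p = 0.227). Phc1 came close to overlap, at 2.03, 3.52 and 4.02 against 1.53, 2.02 and 0.285 (difference 0.94, SE 0.51, adjusted p = 0.170). Ezh2, Eed, Suz12, Jarid2 and Ring1 overlapped between the groups.

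The 4-cell groups also differed in other ways. The mzKO label gives the collection time and not the stage reached, so genotype and developmental stage cannot be told apart there. The oocyte markers summed to 154 to 432 FPKM in mzKO and 102 to 158 in wild type at this time, trophectoderm markers to 38.8 to 94.8 and 2.26 to 9.18, and fibroblast markers to 6.71 to 13.4 and 0.465 to 0.637. At late 2-cell, fibroblast markers summed to 15.8 to 21.2 in mzKO and 1.73 to 3.57 in wild type. Their part in the results for Bmi1, Phc2 and Kdm2b was not tested.

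**Figure D3:**
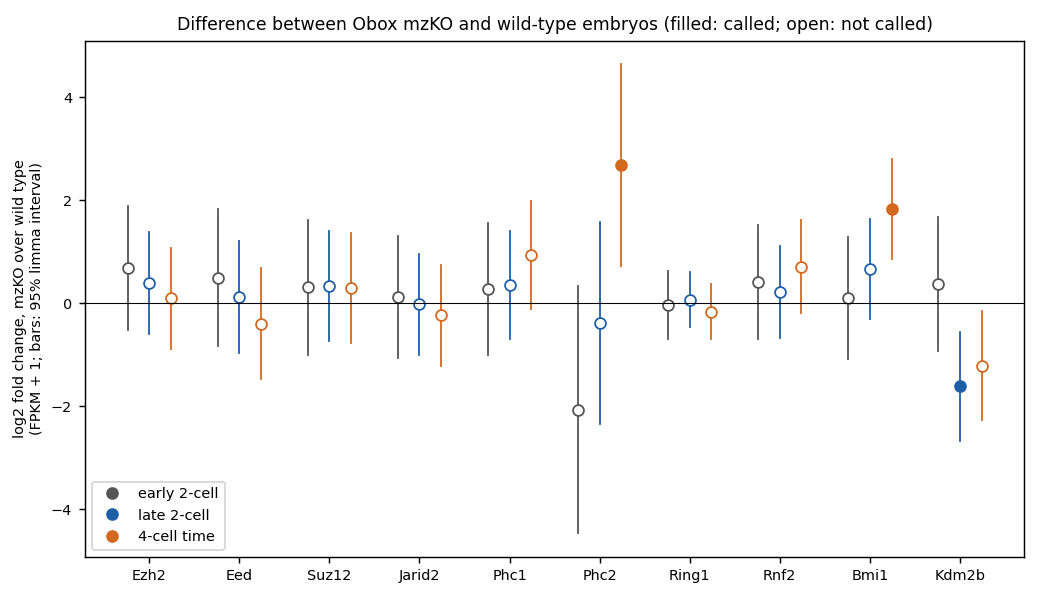
Log2 fold change of each gene in mzKO over wild-type embryos at 3 times, with 95% intervals from limma; filled points were called. Kdm2b at late 2-cell (-1.61), and Bmi1 (1.84) and Phc2 (2.68) at the 4-cell time, are the filled points.

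In the other Polycomb lists, the mzKO comparison at late 2-cell called 4 of the 24 tested PRC1 genes outside the 10 (27 listed) and none of the 10 tested PRC2 genes outside them (11 listed), where 15.5% of all genes were called. Among those PRC1 genes, Pcgf5, a PCGF subunit of variant PRC1, fell by 1.62 (SE 0.51, adjusted p = 0.0275), from 103.9, 70.3 and 75.3 in wild type to 29.6, 27.3 and 21.8. L3mbtl2, of the PCGF6 form, fell by 1.596 (adjusted p = 0.0381), from 20.0, 18.9 and 18.0 to 3.80, 7.74 and 5.85. Bcor and Skp1a, partners of KDM2B in the PCGF1 form, moved the other way. Skp1a rose by 1.83 (adjusted p = 0.0158; 753, 408 and 478 against 134, 150 and 161), and Bcor by 1.34 (adjusted p = 0.00935; 5.58, 5.59 and 9.33 against 1.82, 1.54 and 2.88). All 4 were free of overlap between groups, as were 41.3% of all genes. Of 14 alternatives, the call was kept in 9 for Pcgf5 (adjusted p up to 0.115), 7 for L3mbtl2 (up to 0.124) and 12 each for Skp1a and Bcor. None of the 10 tested PR-DUB genes (the H2A deubiquitinase, 11 listed), the 3 H3K27 demethylases or the 6 tested H3K27me3-imprinted genes was called. Of the 39 listed Hox genes, 6 were tested, and 3 of them were called. A gene silent in most groups can pass the filter through the group where it is high. The median difference of the 6 (1.04) is therefore not comparable with that of all genes (0.01).

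At the 4-cell time, 4 of 10 other PRC2 genes and 4 of 24 other PRC1 genes were called, against 24.6% of all genes. Pcgf1, the PCGF subunit that pairs with KDM2B, fell by 1.89 (SE 0.62, adjusted p = 0.0252), from 211, 178 and 107 to 62.2, 61.1 and 19.8. Scmh1 rose by 2.75 (adjusted p = 0.000119), from 1.16, 2.02 and 1.20 to 16.5, 11.2 and 19.7, and Cbx2, a reader of the PRC2 mark, by 1.79 (adjusted p = 0.0209), from 2.34, 2.57 and 4.33 to 16.1, 9.001 and 14.2. Of the PRC2 accessory genes, Phf1 rose by 2.24 (adjusted p = 0.0369) and Lcor by 2.202 (adjusted p = 0.000566), and Aebp2 fell by 1.51 (adjusted p = 0.00878). The PR-DUB list had 4 of 10 called, all higher, among them Mbd5 (1.44, adjusted p = 0.0201) and Foxk2 (1.27, adjusted p = 0.0314). Kdm6b, an H3K27 demethylase, rose by 1.61 (adjusted p = 0.0448). Of the 6 tested Hox genes, classic Polycomb targets, 2 were called, and of the 6 imprinted genes also 2. The limit given above for Hox genes that passed the filter holds here too. Hoxa7 rose by 2.26 (adjusted p = 0.000326), from 0.420, 0.446 and 1.07 to 8.18, 3.26 and 11.1. Here a rise means higher than wild type at the same time, not higher than at an earlier stage. Hoxa7, Foxk2, Cbx2 and Phf1 were also called as falling from late 2-cell to 4-cell in wild type. Their wild-type late 2-cell means were 5.97, 23.1, 16.3 and 35.1, against 7.50, 21.9, 13.1 and 23.1 in mzKO at the 4-cell time. Late 2-cell values of the other genes named here are not given. Over the PRC1 list the median difference was 0.25, and over the PRC2 list 0.45, against 0.16 over all tested genes. Lcor, Scmh1 and Hoxa7 kept their calls in all 14 alternatives. Aebp2 kept its call in 13, Mbd5 in 11, Pcgf1, Phf1, Cbx2 and Foxk2 in 9 each and Kdm6b in 7.

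At the blastocyst time the libraries labelled as arrested mzKO embryos were far from the others, with FPKM sums of 74531 and 37752 and an Rn45s share of 55.4% and 71.5%. They held 3979 and 2167 genes at 1 FPKM or more, against 10010 to 10568 in mzKO embryos at the 4-cell time. Their correlation with each other was r = 0.233, the lowest of all 78 replicate pairs. Replicate 1 is the library with 60.1 FPKM of summed Obox transcripts, which goes against its label. The part of these limits in the values below was not tested. Eed was at 0 and 0.392 FPKM and Rnf2 at 0.499 and 2.02, against 33.2 and 16.7 for Eed and 22.0 and 12.04 for Rnf2 in wild-type blastocysts. Ezh2, in contrast, measured 26.5 and 15.2, within the span of the wild-type blastocysts (26.6 and 11.1) and just outside that of the mzKO embryos at the 4-cell time (24.2, 16.7 and 19.3) on either side. Against the mzKO embryos at the 4-cell time, 6 of 10 members were called, where 61.5% of all genes were called and the all-gene median was -1.52. Rnf2 fell by 5.03 (adjusted p = 7.69e-09), Phc2 by 5.14 (adjusted p = 0.000212), Eed by 4.20 (adjusted p = 1.17e-06), Bmi1 by 4.16 (adjusted p = 2.78e-07), Suz12 by 3.13 (adjusted p = 4.48e-05) and Jarid2 by 1.33 (adjusted p = 0.0300). The direction for Jarid2 turned to 0.85 with median-ratio scaling and 1.05 with Rn45s left out, and Ezh2, at 0.02 as deposited, was at 3.07 and 3.28 under those scalings, which moved the all-gene median by 0.96 and 0.86. The calls for Rnf2, Phc2, Eed and Bmi1 were kept in all 13 alternatives, that for Suz12 in 11 and that for Jarid2 in 7.

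The single library with Obox157 overexpression had values near the higher wild-type blastocyst for all PRC2 genes: Ezh2 26.1, Eed 28.5, Suz12 25.7 and Jarid2 40.7 FPKM, with Rnf2 at 21.3, Bmi1 at 4.90 and Kdm2b at 5.43. The library with Obox3 overexpression lay nearer the lower wild-type one, with Ezh2 at 11.4, Eed 16.2, Suz12 6.79, Jarid2 17.7, Rnf2 9.71, Bmi1 1.36 and Kdm2b 3.27. FPKM sums were 421357 with Obox157 and 423998 in the higher wild-type blastocyst, and 318568 with Obox3 and 328709 in the lower one. Rn45s took 1.67%, 1.6%, 5.16% and 4.50% in the same order. The part of this in the difference between the Obox157 and Obox3 libraries was not tested. The library with Obox4 overexpression, labelled as arrested, was lower for most: Ezh2 3.20, Eed 5.72, Suz12 2.46, Jarid2 0.935, Rnf2 3.95, Bmi1 1.75 and Kdm2b 1.09. That library had an FPKM sum of 58762 and 4062 genes at 1 FPKM or more, against 318568 to 423998 and 7572 to 8905 in the wild-type blastocysts and the libraries with Obox157 or Obox3, and the part of this in its lower values was not tested. Pluripotency markers summed to 5448, 4213 and 213 in these 3 libraries. With 1 library each there is no replicate check.

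**Figure D4:**
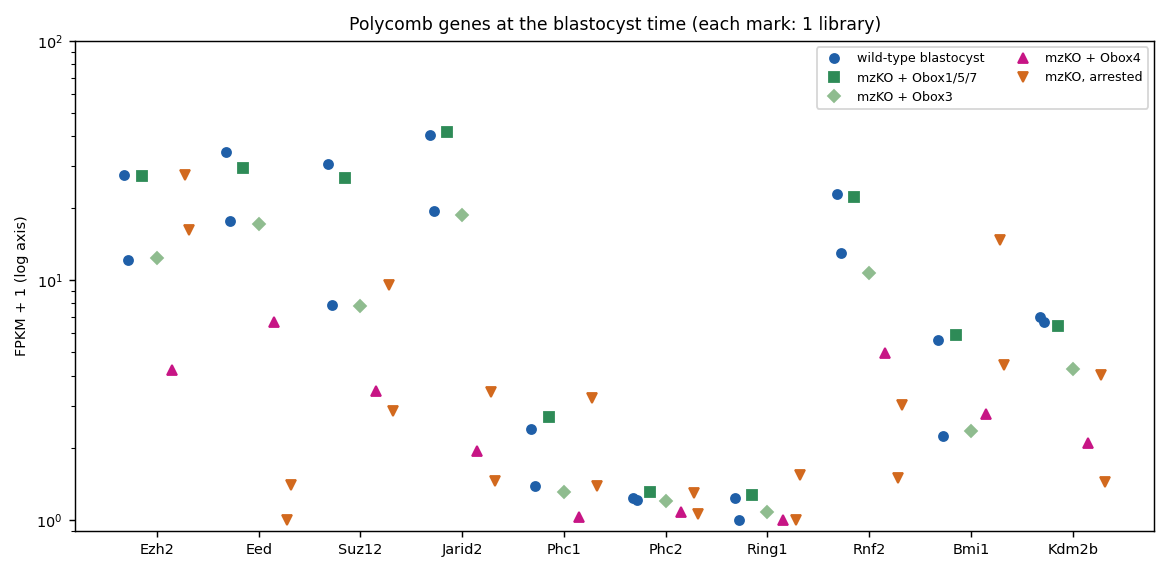
FPKM + 1 on a log axis for the 10 genes at the blastocyst time, each mark 1 library. For Eed and Rnf2 the mzKO library with Obox1/5/7 lies between the wild-type blastocysts and the one with Obox3 just below both, and both arrested mzKO libraries lie lower, with Eed at 0 and 0.392 FPKM.

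Embryos that lacked only the maternal Obox supply had Phc2 as the sole called member at late 2-cell, where 12.9% of all genes were called. Phc2 measured 44.6 and 43.9 in mKO and 2.99 and 2.90 in its wild-type controls, a rise of 3.52 (SE 0.33, adjusted p = 0.0169). The fit had 2 residual degrees of freedom, and the call was lost with median-ratio scaling (4.04, adjusted p = 0.0609), with Rn45s left out (4.13, adjusted p = 0.0505) and with no filter on low genes (3.52, adjusted p = 0.137). In the mzKO table, wild-type late 2-cell libraries ran from 4.29 to 47.3 for the same gene, a span that holds the mKO values. Kdm2b was at 9.59 and 4.12 in mKO against 13.2 and 9.25, with overlap (difference -0.71, SE 0.45, adjusted p = 0.314), and Bmi1 at 186 and 119 against 173 and 189. Of the other lists, 2 of 8 tested PRC2 genes and 2 of 21 tested PRC1 genes were called: Aebp2 fell by 1.79 (adjusted p = 0.0293), Scml2 by 1.67 (adjusted p = 0.0302), Skp1a by 1.48 (adjusted p = 0.0436) and Ezhip by 1.36 (adjusted p = 0.0421), each losing its call in 5 to 7 of 13 alternatives. Over all tested genes the median difference was -0.48, with 11.4% called lower and 1.44% called higher in mKO. FPKM sums were 184488 and 179978 in mKO and 293375 and 291113 in the controls. The part of these shifts in the values above was not tested. The 1 mKO blastocyst library had Kdm2b at 11.9, Bmi1 at 6.69 and Jarid2 at 32.5, against 8.49, 5.55 and 24.7 in its control.

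In single embryos, neither stage had a called member between Obox-- and Obox+-, where 0.461% (early) and 0.632% (late) of all genes were called. At an unadjusted p under 0.05 there were 4 of 9 members early (Ezh2, Eed, Rnf2 and Kdm2b) against 12.4% of all genes, and 1 late (Bmi1) against 13.3%. Those 4 were higher in Obox-- without overlap, and 19.1% of all genes were free of overlap. The all-gene median difference at this stage was 0.238, also higher in Obox--. Rn45s took 3.24% to 4.66% of the early Obox-- and 5.99% to 7.44% of the early Obox+- libraries, and its part was not tested. Kdm2b measured 7.12, 6.56 and 7.69 in early Obox-- against 3.45, 4.51 and 4.23, without overlap, and 14.8, 13.2, 13.8 and 16.6 in late Obox-- against 19.6, 14.5 and 17.6, with overlap. The differences were 0.69 (SE 0.24, adjusted p = 0.250) and -0.22 (SE 0.22, adjusted p = 0.743), and their difference was -0.90 (SE 0.33, adjusted p = 0.368; no member called and 0.0939% of all genes; at an unadjusted p under 0.05, 3 members and 9.35% of all genes). Late Bmi1 was at 80.8, 85.5, 108 and 109 in Obox-- and 60.6, 64.1 and 63.4 in Obox+-. All Obox-- embryos were higher, by 0.59 (SE 0.19, adjusted p = 0.166), and 12% of all genes were free of overlap.

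Knockdown of Obox5, Obox7, Obox4, Obox6 or Obox8 alone, or with the siObox12mix, gave no called member in any of 6 comparisons, and 0 at an unadjusted p under 0.05. The share of all genes called was 0.0233% for siObox12mix, 0.0233% for siObox5, 0.00776% for siObox7, 0.00776% for siObox4, 0.0699% for siObox6 and 0% for siObox8, and at the unadjusted p it was 1.9%, 1.98%, 0.908%, 1.01%, 4.24% and 1.61% in the same order. The targeted transcripts were low: Obox5 was at 2.31 to 9.30 FPKM against 367 to 818 with siCtrl, Obox7 at 0.406 to 1.61 against 10.7 to 40.1, Obox4 at 3.38 to 10.7 against 37.4 to 51.7, Obox6 at 13.2 to 26.5 against 164 to 567, and Obox8 at 3.23 to 21.2 against 62.8 to 238. With the siObox12mix, Obox1 was at 0.638 to 0.991 against 112 to 385 and Obox2 at 0 to 1.05 against 49.9 to 150. Kdm2b in parthenotes measured 6.60 and 6.58 with siObox5 and 16.9, 10.8 and 10.2 with siCtrl, and Bmi1 123 and 122 against 172, 93.0 and 105. The siObox3 library had Kdm2b at 4.13 against 3.68, Bmi1 at 186 against 154 and Phc2 at 1.32 against 18.0, with 1 library each. The siCtrl 4-cell libraries held only 5.84, 6.32 and 6.01 of Bmi1, below all 4-cell libraries of the mzKO table, though the tables were normalised separately and the labels give no hour of collection.

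Injection of Obox RNA into wild-type embryos was read in 1 library each. At late 2-cell, Kdm2b was 3.49 FPKM with H2O, 2.07 with Obox1, 3.57 with Obox2, 3.29 with Obox3 and 3.65 with Obox5, and Bmi1 was 63.6, 63.2, 48.8, 55.0 and 75.7. In blastocysts, Kdm2b was 6.71 with H2O and 2.99, 4.50, 9.15 and 5.27 with Obox1, Obox2, Obox3 and Obox5, and Jarid2 was 48.5 with H2O and 13.1, 36.1, 49.9 and 38.8. The Obox1 blastocyst was lowest for both genes, and its trophectoderm markers summed to 1271 against 6307 to 11555 in the other 4. Its FPKM sum was 241615 against 443511 to 513193, with 7917 genes at 1 FPKM or more against 8943 to 9256. At late 2-cell, the Obox1 library had a sum of 132770 against 148852 to 182213. The part of these differences in the Obox1 values was not tested.

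ESCs were a second setting for Obox3 and Obox5, in cells where Phc2 (at most 0.375 FPKM) and Ring1 (at most 0.856) were too low to be tested. Overexpression was read in the files: Obox3 stood at 760 to 2596 FPKM in Obox3 cells and 0 to 37.2 with GFP, and Obox5 at 467 to 2176 and 0 to 19.2. Kdm2b was the member that stood apart. It measured 5.23, 4.97, 7.05, 9.89 and 9.38 with GFP, 10.8, 19.2, 22.3 and 19.5 with Obox3, and 11.9, 15.9, 15.9 and 30.7 with Obox5. No Obox3 or Obox5 library reached down to the highest GFP library, and 5.64% (Obox3) and 4.9% (Obox5) of all genes were free of overlap.

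In the fit without pairing, no member was called for Obox3 or Obox5, where 3.02% and 2.18% of all genes were, and at an unadjusted p under 0.05 there were 2 of 8 members (Kdm2b and Bmi1) against 11.9% of all genes with Obox3, and 1 of 8 (Kdm2b) against 10.3% with Obox5. Kdm2b differed by 1.19 (SE 0.37, adjusted p = 0.0889) with Obox3 and 1.20 (SE 0.37, adjusted p = 0.109) with Obox5. In this table the replicate numbers were taken to pair the libraries, because same-numbered libraries deviated together in all 4 pairs of each comparison. The labels do not state such a pairing. The choice was made from these same data, and libraries with different numbers were not compared in this way. With the replicate block, 1 member was called in each, and it was Kdm2b: 1.28 (adjusted p = 0.000656) with Obox3 and 1.29 (adjusted p = 0.000952) with Obox5. The share of all genes called with the block is not given here, so this count cannot be set against it. The comparisons share the GFP libraries. GFP replicate 5 has no same-numbered partner, so it did not enter the estimates with the block. Those estimates equal the ones obtained without that library. Bmi1 was at 2.29, 2.74, 3.25, 2.25 and 3.13 with GFP, 0.353, 1.55, 2.74 and 1.09 with Obox3, and 0.528, 2.26, 2.00 and 1.88 with Obox5, with overlap and differences of -0.70 (SE 0.31, adjusted p = 0.346) and -0.53 (SE 0.31, adjusted p = 0.656). Fibroblast markers summed to 32.0 to 100.4 with GFP, 10.4 to 37.7 with Obox3 and 20.3 to 36.7 with Obox5, and their part was not tested.

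In the separate Nr5a2 set, where Nr5a2 itself was at 1.66 to 2.95 FPKM in GFP wild-type cells and at or near 0 in KO cells, Kdm2b measured 11.1 and 7.38 with GFP, 13.8 and 26.4 with Obox3 and 26.7 and 30.1 with Obox5 in wild-type cells. In Nr5a2 KO cells it was 4.21 and 5.93 with GFP, 21.9 and 22.9 with Obox3 and 8.80 and 15.4 with Obox5. Each overexpression library was above both GFP libraries of its genotype. In either direction, 53.4% (Obox3) and 41.5% (Obox5) of all genes were free of overlap in wild-type cells, and 34.1% and 32.1% in KO cells. The call was made for Obox3 in KO cells, where Kdm2b rose by 1.96 (SE 0.45, adjusted p = 0.0164; 3.56% of all genes called), though leaving out any 1 of the 4 libraries gave adjusted p from 0.0602 to 0.151. It was not made for Obox3 in wild-type cells (1.00, SE 0.45, adjusted p = 0.253; 0.935% called), Obox5 in wild-type cells (1.54, SE 0.45, adjusted p = 0.188; 0.663% called) or Obox5 in KO cells (1.08, SE 0.45, adjusted p = 0.6252; 0.935% called). The median difference over all tested genes was -0.48 for Obox3 in wild-type cells and 0.01 in KO cells, and -0.09 and 0.02 for Obox5. The part of this shift in which comparisons had a call was not tested. The difference between KO and wild-type effects passed the threshold for no member, with 0 at an unadjusted p under 0.05 (0.102% of all genes called for Obox3 and 0.0085% for Obox5; 5.27% and 1.63% at the unadjusted p).

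Loss of Nr5a2 alone went with lower Phc1, at 9.25 and 10.7 in KO against 48.4 and 28.6 in wild-type GFP cells. The groups did not overlap, as for 46.7% of all genes. Phc1 fell by 1.80 (SE 0.45, adjusted p = 0.0415), the 1 called member where 2.04% of all genes were called, and the call was lost without any 1 of the 4 libraries (adjusted p from 0.0851 to 0.434). The other 7 tested members had differences of -0.74 to 0.34. In the ESC comparisons with Obox3 or Obox5, none of the other Polycomb lists had a called gene.

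**Figure D5:**
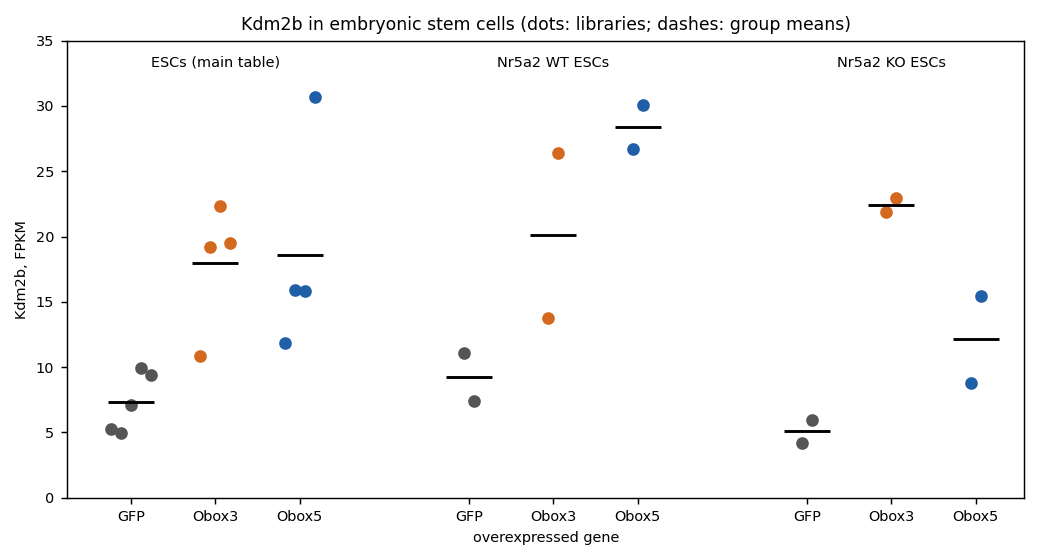
Kdm2b FPKM in each ESC library by overexpressed gene, in the main ESC table and in the Nr5a2 table; dots are libraries and dashes group means, on an axis from 0. In the main table, GFP libraries lie between 4.97 and 9.89 and Obox3 and Obox5 libraries between 10.8 and 30.7.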

How the data were processed

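RNA libraries (107 of 135 samples) were used; 28 chromatin, RNA polymerase II and genome samples were not used here. The authors deposited FPKM values in 7 tables. Per the submitters' processing notes, the build was mm9 and the tools, not tied to files, were HISAT2 (2.2.1), Picard, StringTie (2.1.2), Trim Galore (0.6.6), deepTools (3.3.1) and Bowtie2 (2.3.5). Of 24143 gene names per table, 27 turned into dates were left out.

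Tables were treated as separately normalized, and comparisons stayed within a table. limma 3.58.1 (R 4.3.3, data.table version 1.17.8) was fitted to log2(FPKM + 1) over all replicated groups of a table, with trend and robust empirical Bayes, for genes that reached 1 FPKM in 2 or more libraries. Residual degrees of freedom were 16 (mzKO), 2 (mKO), 9 (single embryos), 11 (knockdown), 10 (ESC) and 6 (Nr5a2). The script was tested on simulated data. There were 30 comparisons of 2 groups and 5 differences of comparisons. Figures were drawn with matplotlib 3.10.9 in Python 3.11.15.

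Whole reads could not be recovered (0.341% to 2.98% of low values sat at the commonest ratio of a library pair), so depth and counting error are unknown. Among 78 replicate pairs, r ran from 0.233 to 0.975 and none held identical values above 0. Replicate numbers were taken to pair libraries only in the main ESC table: all 4 same-numbered pairs of each comparison had correlated deviations, 0.276 to 0.674 (Obox3) and 0.414 to 0.637 (Obox5). Members and gene lists were chosen with earlier results of these data known. Named genes are all members, and of the other lists called genes with a mean of at least 5 FPKM in the higher group and no overlap, at most 4 each way per list in the mzKO late 2-cell and 4-cell comparisons and the main ESC comparisons and at most 2 elsewhere, of which only some are printed. Alternatives were another pseudocount, filters, scalings and variance models, a replicate block, only the compared groups, and leaving out each library.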

Additional observations from a re-analysis of the deposited data

Results flagged for a closer look

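In groups of 4 to 10 libraries, 40 sets of values (10 genes in 4 groups) were examined for a library far from the rest of its group, and 3 had one. Chance alone flags about 1 in 20 groups. In ESCs with Obox3, replicate 4 had Ezh2 at 21.5 FPKM, where the other 3 libraries lay between 23.7 and 24.0, and Ring1 at 0.856, where they lay between 0.0518 and 0.181. In ESCs with Obox5, replicate 4 had Phc1 at 24.8, where the others lay between 13.2 and 14.9. Of 45 differences of effects between stages or genotypes, 0 passed the threshold.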

How the results depend on the processing

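Counts of called members moved by over 1.5 times as follows. With median-ratio scaling, the count went from 5 to 1 (MII against FGO), 0 to 2 (late against early 2-cell, in wild type and in mzKO), 1 to 0 (mKO) and 0 to 1 (Obox3 in ESCs; Obox3 and Obox5 in Nr5a2 wild-type ESCs). With Rn45s left out it went from 5 to 3 (MII against FGO), 3 to 5 (blastocyst against 4-cell), 0 to 1 (late against early 2-cell mzKO) and 1 to 0 (mKO; Nr5a2 KO GFP). A pseudocount of 0.1 took it from 3 to 1 (early 2-cell against MII), 1 to 0 (mzKO late 2-cell) and 2 to 1 (mzKO 4-cell time). No filter gave 1 in place of 2 (mzKO 4-cell time) and 0 in place of 1 (mKO; Nr5a2 KO GFP; Obox3 in Nr5a2 KO). With neither trend nor robust fit, 4-cell against late 2-cell went from 1 to 2. With only the compared groups it went from 3 to 0 (early 2-cell against MII), 1 to 3 (4-cell against late 2-cell) and 0 to 1 (late against early 2-cell mzKO).

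Leaving out 1 library gave 0 to 4 (MII against FGO), 0 to 5 (early 2-cell against MII), 0 to 4 (late against early 2-cell), 0 to 1 (4-cell against late 2-cell; mzKO late 2-cell; late against early 2-cell mzKO; Obox3 in ESCs), 1 to 3 (mzKO 4-cell time), 1 to 4 (mKO) and 0 (Nr5a2 KO GFP; Obox3 in Nr5a2 KO). Against mzKO embryos at the 4-cell time, arrested embryos turned direction with median-ratio scaling and with Rn45s left out for Jarid2 (0.85 and 1.05), Phc1 (1.10 and 1.35) and Kdm2b (1.00 and 1.22). The cause was not tested. Calls elsewhere rest on groups of 2 or 3 libraries of unknown depth.

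With the replicate block, the ESC counts went from 0 to 1 for Obox3 and Obox5, and no other count moved by over 1.5 times. Elsewhere the replicate numbers were not taken to pair libraries. Correlations of same-numbered deviations there ran from -0.559 (siObox8, replicate 2) to 0.688 (siObox4), so some comparisons were as correlated as those in ESCs. A crossed pairing, chosen after seeing the data where same-numbered libraries deviated oppositely, gave 0 members for early 2-cell against MII, 0 for Obox KO MII and 1 for mKO.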
